A study of Mus musculus with 6 samples.

Results

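The genes Mecom and Prdm16 were followed through the lists of H3K27ac peaks of sorted mouse lung cells. Members were chosen by name with earlier results of these data known, and a locus was taken as the gene body plus 50 kb on each side, cut midway to the next protein-coding gene; these are 2 of 21887 coding-gene domains. Peaks of the 4 libraries that overlap by at least 1 bp were merged into elements, which gave 138 elements at the 2 loci of 132212 merged regions in all. The peaks themselves chose the members, so their lengths and peak counts are a description and carry no test.

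H3K27ac, acetylation of lysine 27 on histone H3, marks active promoters and enhancers. It was measured by CUT&RUN, in which an antibody guides a nuclease to cut out marked chromatin, in 2 libraries each from mesothelium (PDPN+ EPCAM- CD45- CD31- DAPI-) and from epithelium (PDPN+ EPCAM+ CD45- CD31- DAPI-) of lungs at E16.5, days of embryonic age. Embryos of all groups came from matings of Myrf Fl/Fl mice, which carry floxed Myrf alleles; the labels name no Cre, and cells are described as wildtype in the series text. By the titles, the input was 25k and 100k cells for mesothelium replicates 1 and 2, and 100k and 200k for the epithelium replicates (the protocol gives a narrower range); lungs were pooled before the sort. Whether replicates were separate pools is not stated, so the spread between them and the p-values may be technical, and 2 IgG libraries of epithelium were not analysed here.

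MECOM (also called PRDM3, EVI1 or MDS1-EVI1) and PRDM16 are paralogous zinc-finger transcription factors of the PRDM family, named for a PR domain related to the SET domain of histone methyltransferases. Both bind CtBP corepressors, and both are known as regulators of stem and progenitor cells, MECOM in blood and PRDM16 also in brown fat. In mouse both genes are transcribed from a far upstream start that gives the form with the PR domain, and Mecom has a second, internal start for the shorter EVI1 form that lacks it. In lung, both factors are known from work on the differentiation of alveolar epithelium.

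The sequences at these starts are shown because acetylation at the starts is described next. Each window holds 250 bases before and 50 bases after a RefSeq start of GRCm38.p6, the assembly that mm10 names, read 5′ to 3′ on the minus strand; both genes lie on that strand. Capitals mark the longest run of letters shared by the upstream window of Mecom and the window of Prdm16.
Mecom long-form start (chr3:30509710-30510009): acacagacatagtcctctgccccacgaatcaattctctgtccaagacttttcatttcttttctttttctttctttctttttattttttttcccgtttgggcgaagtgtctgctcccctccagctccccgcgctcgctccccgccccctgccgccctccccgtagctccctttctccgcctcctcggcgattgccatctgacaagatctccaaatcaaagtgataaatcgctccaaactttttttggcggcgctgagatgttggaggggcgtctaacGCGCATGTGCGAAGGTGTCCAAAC
Mecom internal start (chr3:30013155-30013454): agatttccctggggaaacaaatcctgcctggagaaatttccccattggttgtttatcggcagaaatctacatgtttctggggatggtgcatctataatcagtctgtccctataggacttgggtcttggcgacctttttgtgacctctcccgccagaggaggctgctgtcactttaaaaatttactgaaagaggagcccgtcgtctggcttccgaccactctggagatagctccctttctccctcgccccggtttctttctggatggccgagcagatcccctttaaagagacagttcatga
Prdm16 start (chr4:154636824-154637123): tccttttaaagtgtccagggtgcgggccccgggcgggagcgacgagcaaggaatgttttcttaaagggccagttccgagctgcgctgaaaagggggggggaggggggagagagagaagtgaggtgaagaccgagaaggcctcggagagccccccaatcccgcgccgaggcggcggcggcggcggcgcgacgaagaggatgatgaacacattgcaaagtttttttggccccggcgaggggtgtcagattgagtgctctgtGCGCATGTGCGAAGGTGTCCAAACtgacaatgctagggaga

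The paralogues shared an unbroken run of 24 bases, GCGCATGTGCGAAGGTGTCCAAAC, just downstream of their starts. It began 26 bases after the start base of Mecom and ran to the window's last base, and it began 9 bases after the start base of Prdm16. Searched on both strands, the run was present in 2 of 32851 windows of the promoter table (0.00609%), those of Mecom and Prdm16. The internal Mecom window did not hold it. GC content was 52.0%, 49.7% and 61.0% in the long-form, internal and Prdm16 windows, against a median of 52.7% over all windows, and they held 19, 9 and 24 CpG dinucleotides against a median of 7. The GC box GGGCGG, searched on both strands, was found 2 times in the long-form window, 0 times in the internal window and 1 time in the Prdm16 window, and in 35.7% of all windows. The TATA box TATAAA was in none of the 3 windows and in 13.6% of all windows.

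Mecom carried more acetylated sequence in epithelium than any other coding-gene domain, in both libraries. Its domain (chr3:29901296-30553416, mm10, 652.1 kb, gene body chr3:29951296-30509759) held 103.1 kb under peaks in epithelium replicate 1 and 95.1 kb in replicate 2, the highest of 21887 domains in each. In mesothelium it held 12.549 kb in replicate 1 and 7.11 kb in replicate 2, ranks 404 and 1216. Both epithelium libraries were at least 7.58 times as long as either mesothelium library. The means were 99.1 ± 5.67 kb in epithelium and 9.83 ± 3.85 kb in mesothelium (SD, n = 2 each), a difference of 3.26 on the median-centred log2(kb + 0.5) scale, epithelium minus mesothelium. The domain is also a long one: peaks covered 15.8% and 14.6% of the Mecom domain in epithelium, which ranked 6 and 5 among the 765 domains of at least 300 kb, whose median was 0.858% and 0.760%.

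At Prdm16 both epithelium libraries were again longer than both mesothelium libraries, with a shorter total. Its domain (chr4:154308115-154651894, 343.8 kb, gene body chr4:154316122-154637360) held 39.5 and 41.9 kb in epithelium replicates 1 and 2, ranks 31 and 19 of 21887. It held 3.74 kb in mesothelium replicate 1 and 0.349 kb, a single peak, in replicate 2. The mesothelium libraries differed from each other by more than the epithelium libraries did, and the groups did not overlap. The means were 40.7 ± 1.71 kb and 2.05 ± 2.40 kb (SD, n = 2 each), a log2(kb + 0.5) difference of 4.38, the second largest toward epithelium of 10486 domains with a mean length of at least 0.5 kb; Mecom was at place 40. Without mesothelium replicate 2 the Prdm16 difference was 3.12, and without mesothelium replicate 1 it was 5.59. Over the same 10486 domains, 25.5% had both epithelium libraries longer than both mesothelium libraries, so the order alone is common, and these values also chose the members, so nothing is read from it.

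**Figure D1:**
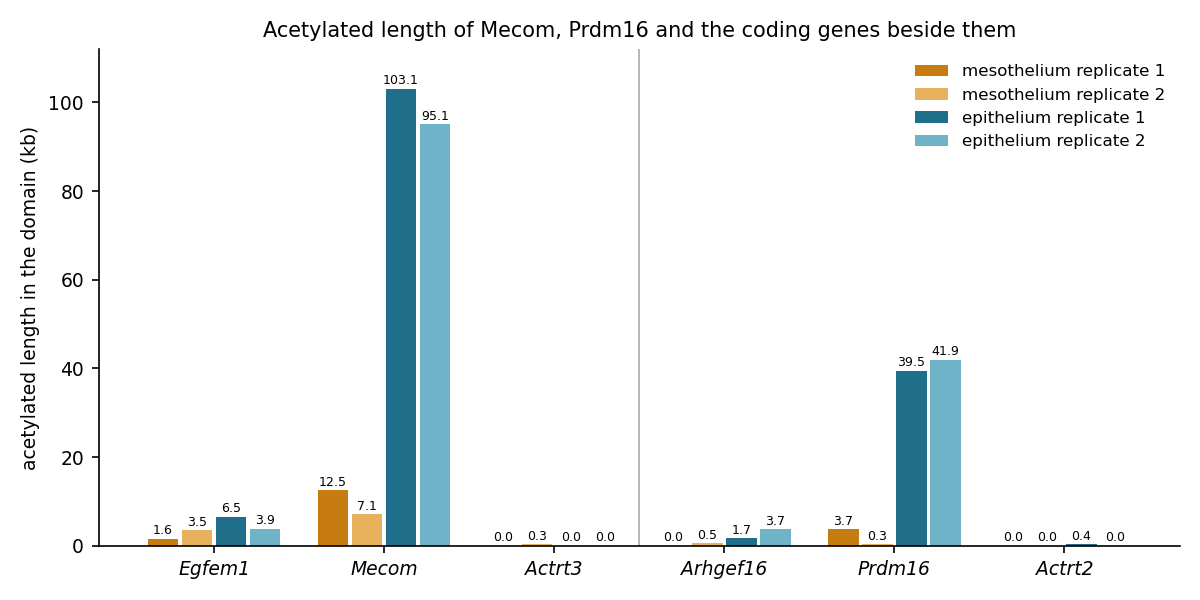
Acetylated length in kb (bars, from 0) per library for Mecom, Prdm16 and the coding gene on each side, ordered along the chromosome for each locus; each bar is 1 library. Mecom reaches 103.1 and 95.1 kb and Prdm16 39.5 and 41.9 kb in epithelium, while none of the 4 flanking genes exceeds 6.50 kb in any library. Domains differ in size, and the bars are not divided by domain length.

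The coding genes on either side carried much less acetylated length in kb, over domains of unlike size. Egfem1, the next coding gene beyond the 3′ end of Mecom, held 6.50 and 3.86 kb in epithelium against 1.60 and 3.49 kb in mesothelium over a domain of 709.4 kb. Actrt3, next to the Mecom start, held 0.350 kb in mesothelium replicate 2 and no peak elsewhere. Beside Prdm16, Arhgef16 held 1.70 and 3.72 kb in epithelium and no peak and 0.512 kb in mesothelium. Actrt2 held 0.362 kb in epithelium replicate 1 alone. The domains of Actrt3, Arhgef16 and Actrt2 are 47.6, 31.0 and 66.0 kb long, against 652.1 kb for Mecom and 343.8 kb for Prdm16. These lengths therefore do not compare coverage per base. Of the 12 nearest coding genes, 3 on each side of each locus, 7 could be tested. None was called by limma at an adjusted p under 0.05 (1 had an unadjusted p under 0.05), against 3.94% of all tested domains. The smallest adjusted p was that of Arhgef16 (difference 2.04 on the log2 scale with SE 0.79, limma adjusted p = 0.164, Benjamini-Hochberg). At the 3′ border of Mecom the nearest peak inside was 53.9 kb and the nearest outside 40.8 kb from the border in epithelium replicate 2, and 64.0 and 74.1 kb in replicate 1. At the Prdm16 3′ border the nearest peaks of epithelium replicate 2 lay 7.45 kb inside and 8.49 kb outside, the latter at Arhgef16.

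The long Mecom domain was made of many peaks, with a median deposited fold near that of the whole lists. The lists give 1 fold per peak, so the highest point within a peak is not known. Epithelium replicates 1 and 2 had 58 and 62 peaks there, and mesothelium replicates 14 and 10. The fold enrichment of a peak over background, a deposited value of the authors, had a median of 3.599 and 3.689 at Mecom in epithelium against 3.47 and 3.48 over the whole lists. The median −log10 q was 1.69 and 1.84 against 1.56 and 1.56, and 1 Mecom peak in 1 library reached a −log10 q of 4. Besides their number, the peaks were also wider. Median peak widths were 1113 and 690.5 bp at Mecom against 580 and 571 bp over the lists, and 17 and 18 peaks were at least 2 kb wide. In mesothelium the median widths of 556.5 and 450 bp lay below the list medians of 588 and 613 bp, with 1 such wide peak in replicate 1 and 0 in replicate 2.

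At Prdm16, epithelium replicates 1 and 2 had 25 and 30 peaks, with median widths of 958 and 784.5 bp and median folds of 3.63 and 3.57. The mesothelium libraries had 5 peaks and 1 peak. No Prdm16 peak reached a −log10 q of 4 in any library. The highest fold of the locus was 5.09 in epithelium replicate 1, above 98.0% of that library's peaks, with a −log10 q of 3.66.

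**Figure D2:**
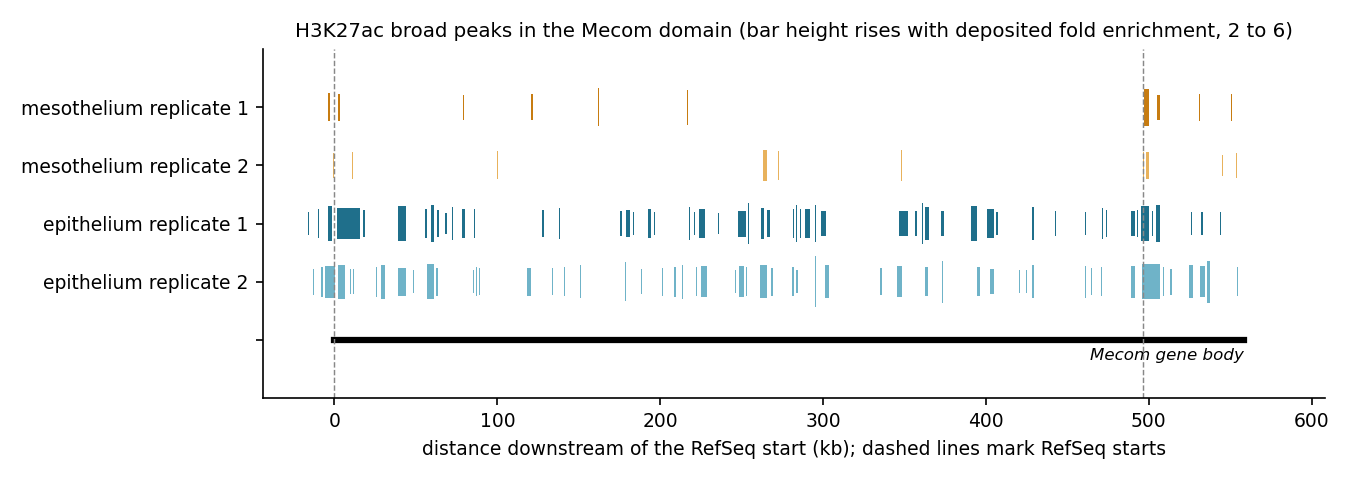
Peaks of each library across the Mecom domain, against distance in kb downstream of the upstream RefSeq start; bar width is peak width, bar height rises with the deposited fold, the black line is the gene body and dashed lines are the RefSeq starts. Epithelium peaks (58 and 62) run through the whole gene, and mesothelium peaks (14 and 10) include the surroundings of both starts.

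Both starts of Mecom lay in elements found in all 4 libraries. The element over the upstream start (chr3:30509223-30515630, 6.41 kb) held 1.75 and 0.837 kb of peaks in mesothelium and 2.79 and 6.41 kb in epithelium. The element over the internal start (chr3:30002529-30014580, 12.1 kb) held 4.52 and 1.88 kb in mesothelium against 8.50 and 10.6 kb in epithelium. These elements are merged over libraries, so a library's own peaks need not reach the start base; the 4.52 kb were the longest Mecom element of mesothelium replicate 1.

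Within the windows printed above the pattern was less even. A peak lay on the upstream window in mesothelium replicate 1 (fold 4.21) and epithelium replicate 2 (fold 3.99), and the nearest peak was 67 bp away in mesothelium replicate 2 and 975 bp away in epithelium replicate 1. On the internal window a peak was present in both epithelium libraries (folds 4.30 and 4.37), and the nearest mesothelium peaks were 295 and 35 bp away. Of 21263 windows of coding genes, 17.8% to 26.2% held a peak in a given library and 5.44% in all 4.

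At the Prdm16 start the acetylation was nearly all epithelial. The element over it (chr4:154630961-154638452, 7.49 kb, the widest of the locus) held 6.03 and 5.52 kb in epithelium. It held 0.335 kb in mesothelium replicate 1, 2924 bp from the window, and nothing in replicate 2, whose nearest peak was 274120 bp away. Peaks lay on the printed window in both epithelium libraries (folds 4.02 and 4.18) and in neither mesothelium library, a pattern found at 1.17% of the coding-gene windows. The starts of the non-coding genes Prdm16os and 5930403L14Rik lie at −707 bp and 506 bp from the Prdm16 start, counted downstream, so this acetylation cannot be assigned to 1 of the 3 transcripts.

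Most of the epithelial acetylation of Mecom lay between its starts, which are 496.6 kb apart. This stretch held 89.0 and 67.7 kb in epithelium replicates 1 and 2 and 5.15 and 3.67 kb in mesothelium, and it made up 79.1% of the mean epithelial length. From the internal start to the 3′ end, 61.9 kb, epithelium held 10.1 and 20.4 kb and mesothelium 5.65 and 2.60 kb. Per base, epithelium covered 17.9% and 13.6% of the stretch between the starts and 16.3% and 33.0% of the part after the internal start. Mesothelium covered 1.04% and 0.739% of the former and 9.12% and 4.20% of the latter, so its peaks were denser after the internal start in both libraries. Which elements overlap exons was not analysed here.

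Along the gene the epithelial length was not even. The first 100 kb after the upstream start held 28.7 and 21.3 kb, the next 100 kb held 8.85 and 6.26 kb, and the third held 20.7 and 19.4 kb. The 50 kb beyond the 3′ end held no peak in any library, and the 43.7 kb upstream of the start held 4.07 and 6.94 kb in epithelium. Prdm16 was weighted toward its start: the first 100 kb held 23.0 and 19.5 kb in epithelium, 52.2% of the mean epithelial length, the next 100 kb held 10.8 and 11.6 kb and the third held 5.19 and 9.001 kb. At Mecom the first 100 kb made up 25.2%.

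**Figure D3:**
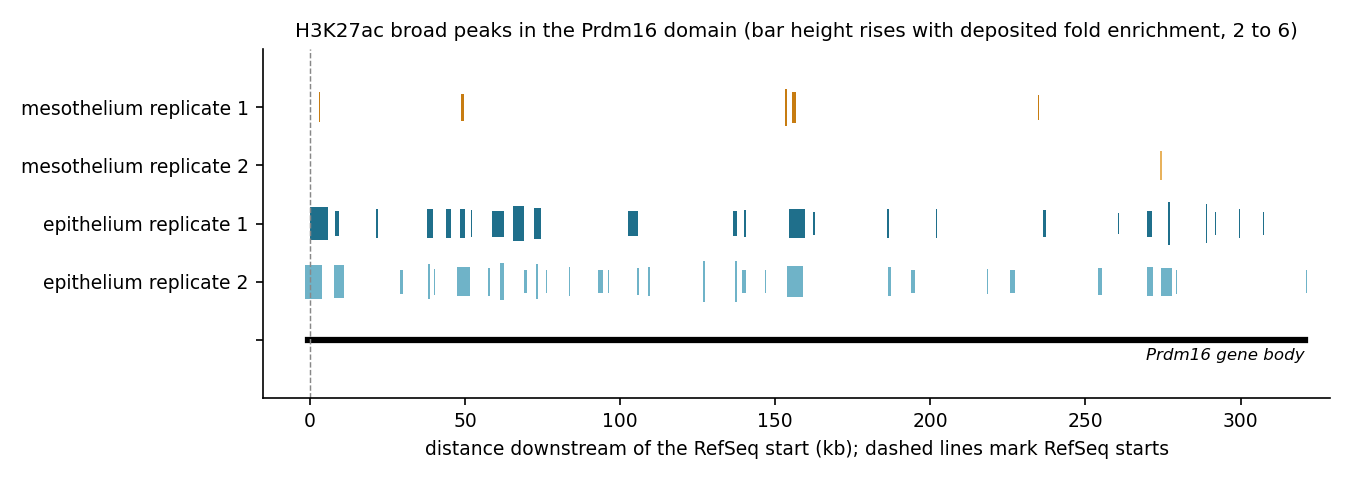
Peaks of each library across the Prdm16 domain, drawn as for Mecom, against distance in kb downstream of its RefSeq start. Epithelium peaks (25 and 30) are densest in the first 100 kb, which hold 23.0 and 19.5 kb, and mesothelium has 5 peaks and 1 peak.

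Of the 96 Mecom elements, 17 were epithelium-only, present in both epithelium libraries and neither mesothelium library, and none was mesothelium-only. That is 17.7% of the elements, against 3.31% of all merged regions that were epithelium-only and 2.6% that were mesothelium-only. Another 4 elements were in all 4 libraries (4.17%, against 3.24% of all regions), 4 were in both epithelium libraries and 1 mesothelium library, and 2 were in 1 library of each cell type. The remaining 62 and 7 were in 1 epithelium or 1 mesothelium library. Since the locus was chosen with its peaks in view, these shares describe it and are not set against each other by a test.

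The 17 epithelium-only elements of Mecom were 704 to 5016 bp wide, with a median of 2594 bp, and all lay in the gene body. The widest (chr3:30205977-30210992, 301.3 kb downstream of the start) held 3.37 and 2.93 kb of peaks in epithelium replicates 1 and 2. The next (chr3:30465728-30470594, 41.6 kb downstream) was covered almost whole in both, with 4.74 and 4.87 kb. Another (chr3:30281063-30285909, 226.3 kb downstream) held 3.44 and 3.45 kb. These 3 were of like length in both libraries, while others rested mainly on 1 library. The element chr3:30115288-30119136 held 3.52 kb in replicate 1 and 0.556 kb in replicate 2, and chr3:29982346-29984967 held 0.473 and 2.62 kb.

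The highest deposited fold among them was not in the widest element. It was the highest of the locus and lay in a narrow element (chr3:30213905-30214896, 0.992 kb, 295.4 kb downstream). The folds there were 4.53 and 5.82, with −log10 q of 2.88 and 4.84, in epithelium replicates 1 and 2. The 2 elements of all 4 libraries that lie away from the starts were wider. One followed the upstream start (chr3:30493943-30508235, 14.3 kb) and was 1 unbroken peak in epithelium replicate 1, the sixth widest of that library's 47869 peaks. In replicate 2 it held 5.81 kb in 3 peaks, and in mesothelium 1.07 and 0.494 kb. The other (chr3:30242172-30248500, 6.33 kb, 264.4 kb downstream) held 4.16 and 4.29 kb in epithelium against 0.551 and 1.88 kb in mesothelium.

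Of the 42 Prdm16 elements, 10 were epithelium-only (23.8%), none was mesothelium-only and none was in all 4 libraries. Another 4 were in both epithelium libraries and 1 mesothelium library, 27 were in 1 epithelium library and 1 was in 1 mesothelium library. The 10 epithelium-only elements were 1279 to 4232 bp wide, with a median of 2028.5 bp. Of these, 4 had centres 38.8 to 73.4 kb downstream of the start, with elements of other classes between some of them. Among the 4 were the widest (chr4:154567034-154571265), with 3.53 and 0.893 kb, and chr4:154574253-154578199, with 3.75 and 1.38 kb. Nearest to the start, chr4:154625877-154629009 held 1.37 and 3.13 kb. The most distant, chr4:154365138-154366948, held 1.45 and 1.79 kb at 270.8 kb downstream.

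After the start element, the widest at Prdm16 were 2 that mesothelium replicate 1 shared. The element chr4:154477358-154483577 (6.22 kb, 156.4 kb downstream) held 4.98 and 5.28 kb in epithelium and 1.94 kb in mesothelium replicate 1. The element chr4:154585154-154589558 (4.41 kb, 49.5 kb downstream) held 1.57 and 4.41 kb in epithelium and 1.15 kb in mesothelium replicate 1. The only peak of mesothelium replicate 2 was 349 bp wide, in chr4:154358987-154362704, where epithelium held 0.765 and 3.58 kb.

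The counts of epithelium-only elements depended on the peaks admitted. From peaks whose −log10 q was 2 or more there were 5 at Mecom and 1 at Prdm16, and from 4 or more there were 0 at both. Without epithelium replicate 1 or 2, when 1 library is enough, there were 53 and 50 at Mecom and 26 and 22 at Prdm16.

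**Figure D4:**
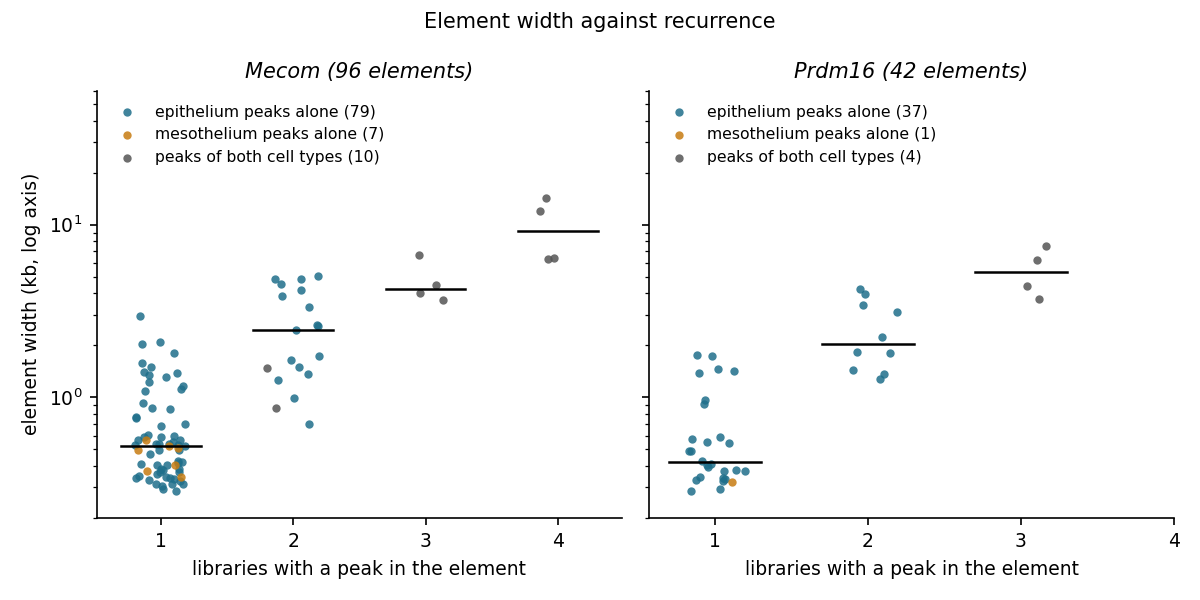
Width in kb (log axis) of each element against the number of libraries that hold a peak in it, for Mecom (96 elements) and Prdm16 (42); black lines are medians and colours give the cell types. Median width rises from 524 bp in 1 library to 9230 bp in 4 at Mecom, and from 420 bp in 1 to 5312.5 bp in 3 at Prdm16.

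Elements found in more libraries were wider at both loci. At Mecom the 69 elements of 1 library had a median width of 524 bp, and the medians were 2453, 4250.5 and 9230 bp for those of 2, 3 and 4 libraries. At Prdm16 the medians were 420, 2028.5 and 5312.5 bp for 1, 2 and 3 libraries. Of the elements of 1 library, 55 of 69 at Mecom and 23 of 28 at Prdm16 were under 1 kb. Over all merged regions the medians were 504, 1434.5, 2220 and 3130 bp for 1 to 4 libraries. A merged element is at least as wide as any of its peaks, and a wide one has more bases to be hit, so width and recurrence are not independent measures.

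The epithelium libraries overlapped more at these loci than over all domains. The Jaccard index, bases covered in both libraries divided by bases covered in either, was 0.313 for the epithelium pair at Mecom and 0.275 at Prdm16, against 0.149 over all domains. At Mecom 28 of the 58 peaks of epithelium replicate 1 overlapped a peak of replicate 2, and 28 of 62 the other way; at Prdm16 it was 14 of 25 and 14 of 30. The mesothelium pair had an index of 0.133 at Mecom, against 0.143 over all domains, and shared no base at Prdm16. Between cell types it was 0.0302 to 0.0846 at Mecom and 0 to 0.0708 at Prdm16, against 0.102 to 0.112 over all domains. Overlap also rises with the share of a domain that is covered, and epithelium peaks of either library covered 23.1% of the Mecom domain and 18.6% of the Prdm16 domain, against 3.80% of all domains.

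Mesothelium peaks at both loci lay mainly within epithelium peaks. At Mecom 71.0% of the bases of mesothelium replicate 1 and 77.2% of those of replicate 2 were under a peak of either epithelium library, against 31.4% and 29.2% over all domains. At Prdm16 it was 80.7% and 61.6%, the latter of 0.349 kb. Epithelium peaks covered 23.1% of the Mecom domain and 18.6% of the Prdm16 domain, against 3.80% of all domains. More overlap is expected where more is covered, so these shares do not show closer nesting at the 2 loci than elsewhere. The summed length of the 8 lung epithelium markers was 22.0 kb in mesothelium replicate 1 and 4.13 kb in replicate 2. Cdh1 held 8.05 and 1.03 kb, Foxa2 5.85 and 0.417 kb, Krt18 3.15 kb and no peak, and Nkx2-1 2.95 kb and no peak. The order was reversed at Epcam (0.685 and 1.02 kb), Cldn18 (0.378 and 0.531 kb) and Krt8 (0.909 and 1.13 kb). Sftpc had no peak in either replicate. Mecom (12.549 and 7.11 kb) and Prdm16 (3.74 and 0.349 kb) were also longer in replicate 1. The part of epithelial cells in these values was not tested.

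Peaks were also joined across the gap customary in super-enhancer calling, and clusters were ranked by covered length. The longest at Mecom covered 19.7 kb in epithelium replicate 1 (5 peaks over 35.1 kb, rank 92 of 29379 clusters) and 27.1 kb in replicate 2 (13 peaks over 76.9 kb, rank 27 of 28228), and both took in the upstream start. The second in replicate 2 covered 22.5 kb around the internal start (rank 56), and the second in replicate 1 covered 14.4 kb between the starts (rank 218). The longest at Prdm16 covered 15.2 and 13.4 kb (ranks 190 and 202) and lay downstream of the start. In mesothelium the longest cluster at Mecom covered 4.52 and 2.29 kb. Mecom was first by total length, while the best rank of any of its clusters was 27.

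Summed marker lengths followed the labels of the libraries, though not every marker did. The 8 markers of lung epithelium summed to 118 and 135 kb in epithelium, and the 8 mesothelium markers to 24.8 and 52.9 kb in mesothelium against 4.94 and 9.06 kb in epithelium. By limma, 4 of 7 tested epithelium markers were longer in epithelium, against 2.53% of all tested domains. Of the mesothelium markers, 4 of 7 tested were longer in mesothelium, against 1.41% of all tested domains. Of those 7, Msln (0.544 and 0.893 kb in mesothelium, 1.19 and 4.29 kb in epithelium) and Krt19 (3.12 and 1.80 kb, 3.12 and 2.96 kb) had the higher mean in epithelium and did not pass (limma adjusted p = 0.438 and 0.895). Endothelium, a cell type in which both factors are also known, was sorted out by CD31: its 6 markers summed to 12.9 and 10.5 kb in mesothelium against 3.00 and 5.78 kb in epithelium, with Tek and Kdr longer in mesothelium and without a peak in epithelium. Erg (0.317 and 3.03 kb) and Cdh5 (0.378 and 0.835 kb) had peaks in epithelium and none in mesothelium. The 4 immune markers summed to at most 1.74 kb. The 7 fibroblast and smooth muscle markers summed to 14.2 and 17.4 kb in mesothelium against 1.85 and 2.75 kb in epithelium. Col3a1 held 9.05 and 12.3 kb in mesothelium and no peak in epithelium (limma adjusted p = 0.00058), the largest difference of all tested domains in either direction. Acta2 had the higher mean in epithelium. By limma, 2 of 4 tested endothelium markers and 1 of 3 tested fibroblast and smooth muscle markers were longer in mesothelium, against 1.41% of all tested domains. None was called longer in epithelium. In sorted pools, more cells with a mark and more of it per cell cannot be told apart.

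None of the other PRDM genes was called. Of 13, 9 could be tested and 0 passed in either direction (limma, adjusted p under 0.05; 1 had an unadjusted p under 0.05), against 3.94% of all tested domains: 2.53% called longer in epithelium and 1.41% in mesothelium. Their median log2 difference was 0.16, against −0.03 over all tested domains. Prdm6, a family member known in smooth muscle, held 8.07 and 5.62 kb in mesothelium against 2.05 and 2.46 kb in epithelium (difference −1.46 on the log2 scale with SE 0.57, limma adjusted p = 0.171). Prdm2, also called RIZ, held 7.16 and 9.20 kb in mesothelium against 2.90 and 6.59 kb in epithelium (limma adjusted p = 0.403). With 2 libraries a group, 66.4% of simulated log2 differences of 3 and 28.0% of those of 2 were recovered, so smaller differences could be missed.

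**Figure D5:**
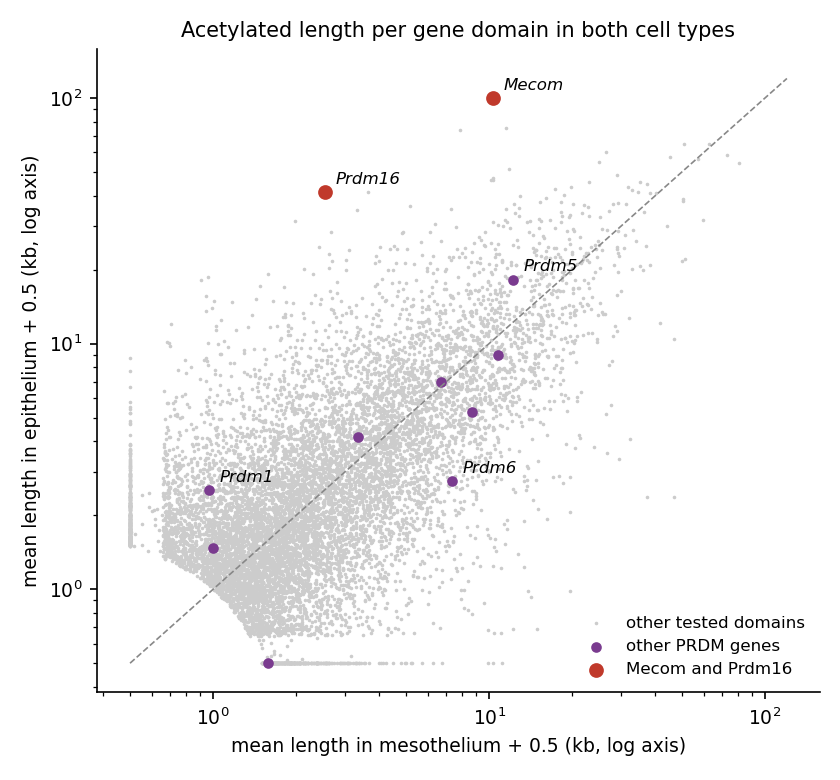
Mean acetylated length per domain in epithelium against mesothelium (kb + 0.5, log axes) for the 10486 tested domains; red points are Mecom and Prdm16, purple points the other 9 tested PRDM genes, and the dashed line is equality. Mecom has the highest mean in epithelium, and the other PRDM genes scatter on both sides of the line.

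Among corepressors and cofactors that bind MECOM or PRDM16, none of 8 tested was called, against 3.94% of all tested domains. Of the 8, 3 had an unadjusted p under 0.05 by limma, and the median log2 difference was −0.59. Ctbp2, which encodes a CtBP corepressor, held 38.1 and 36.2 kb in epithelium against 20.3 and 15.2 kb in mesothelium (difference 1.00 on the log2 scale with SE 0.29, limma adjusted p = 0.059). Ehmt1, which encodes a methyltransferase of histone H3 lysine 9 and a PRDM16 partner, held 19.3 and 25.3 kb in mesothelium against 13.3 and 7.73 kb in epithelium (limma adjusted p = 0.089). Ctbp1, the other CtBP gene, had the opposite sign, with 4.76 and 1.48 kb in mesothelium, 0.542 kb in epithelium replicate 1 and no peak in replicate 2 (difference −2.22 on the log2 scale with SE 0.80, limma adjusted p = 0.133). None of the 3 genes passed, and their groups did not overlap, as was so for 25.5% of tested domains toward epithelium and 22.4% toward mesothelium.

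Of 6 tested partner transcription factors and coactivators, 1 was called longer in epithelium, Runx1, against 2.53% of all tested domains. The list's median log2 difference was 1.16. Runx1, a RUNT-domain factor that MECOM is known to bind, held 12.3 and 25.0 kb in epithelium against 2.87 and 0.721 kb in mesothelium (difference 3.09 on the log2 scale with SE 0.59, limma adjusted p = 0.0038). It was not called from peaks whose −log10 q was 2 or more (limma adjusted p = 0.249) or with 0.1 kb added in place of 0.5 kb (0.120). Without epithelium replicate 2, which leaves 1 epithelium library, it was not called either. From peaks whose −log10 q was 4 or more it could not be tested. Over the alternatives with all 4 libraries in which it was tested, the limma adjusted p ran from 8.3e-06 to 0.249. Cebpb, a partner of PRDM16 in brown fat, held 4.00 and 2.91 kb in epithelium against 0.633 and 0.410 kb in mesothelium and did not pass (limma adjusted p = 0.150).

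The domains most like each member were found by Euclidean distance between the centred log2(kb + 0.5) values of the 4 libraries, among 8448 tested domains that overlap no other coding gene. Nearest to Mecom were Ctnnd2 (distance 0.75), Nckap5 (1.40), Wwc1 (1.58), Ptprm (1.61) and Zfp608 (1.75). Ctnnd2, which encodes delta-catenin 2, held 78.6 and 71.0 kb in epithelium against 11.9 and 10.1 kb in mesothelium, behind Mecom in epithelium replicate 1 and behind Mecom and Nckap5 in replicate 2. Nearest to Prdm16 were Foxa2 (distance 0.62), Nkx2-1 (1.00), Cadm1 (1.40), Limch1 (1.40) and Dcbld1 (1.52). Foxa2, an endoderm forkhead factor, held 36.3 and 45.5 kb in epithelium against 5.85 and 0.417 kb in mesothelium, and Nkx2-1, the homeodomain factor that specifies lung epithelium, 28.1 and 33.7 kb and 2.95 kb and no peak. The paralogues were not among each other's 5 nearest (distance 3.99). Of the 8448 domains, Prdm16 was 270th nearest to Mecom, and Mecom was 422nd nearest to Prdm16. Mecom was longer in every library. Their centred values lay furthest apart in mesothelium replicate 2 (2.90 for Mecom and −0.27 for Prdm16), where Prdm16 had a single peak of 0.349 kb.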

How the data were processed

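H3K27ac CUT&RUN libraries were made with a commercial kit and sequenced as paired-end reads, per the labels' protocols. MACS2 2.2.9.1, Bowtie2 2.5.3 and cutadapt 4.8 are named with the build mm10 in the submitters' processing notes, without roles. The calling threshold was not given in the sources used here, nor was any use of IgG. Each library has 1 deposited list of broad peaks (39010 to 47873). The deposited ratio is the fold enrichment over background. Deposited −log10 p- and q-values rank peaks within a list, and the lowest −log10 q was 1.00 to 1.03. The deposited score, 10 times the −log10 q, was not used. Lists hold no counts, so depth is unknown, and a missing peak is not missing acetylation.

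Peaks off the assembled nuclear chromosomes were dropped (1 to 8 per library). Genes came from a RefSeq table of GRCm38.p6, without exons. The test was limma 3.58.1 in R 4.3.3, with a mean-variance trend, on median-centred log2 values of domain length (0.5 kb added). Benjamini-Hochberg adjustment ran over the 10486 domains whose mean reached 0.5 kb; p-values are given for genes that are not members. In 10 simulated sets of 10486 domains with 200 changed, 4.62% of calls were false. The simulated noise was independent and normal, with the fit's own variances. That rate therefore follows largely from the model and does not show the rate of false calls in these data. Intervals were handled in Python 3.11.15 with numpy 2.4.6 and pandas 2.3.3. Members, lists and tests were chosen with earlier results of these data known. Named genes were the members, their neighbours, list members called or with the smallest adjusted p, markers, and the 5 nearest domains by distance; named elements were the widest, those at starts and examples of each class, some picked after their values were seen.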

Additional observations from a re-analysis of the deposited data

How the results depend on the processing

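Epithelium stayed longer at Mecom and Prdm16 under the alternatives run, except that at −log10 q 4 or more Prdm16 has no peak in any library and so no direction, and Mecom has 1 peak in 1 library. The log2 difference of Mecom, 3.26, was 3.91 from peaks whose −log10 q was 2 or more and 0.91 from 4 or more, and that of Prdm16, 4.38, was 0.12 from 4 or more, a value that comes from the centring of libraries all at 0 kb and measures no difference. Leaving out 1 library gave 2.77 to 3.70 for Mecom and 3.12 to 5.59 for Prdm16. Mecom kept the longest domain in both epithelium libraries at −log10 q 2 or more, equal numbers of peaks, 5 kb flanks and uncut flanks, but at 4 or more it held no peak in replicate 1 and 0.992 kb in replicate 2. Epithelium-only elements, 17 and 10, numbered 5 and 1 at −log10 q 2 or more, 0 and 0 at 4 or more, and 18 to 53 and 11 to 26 when 1 library was left out. The epithelium Jaccard index of Prdm16 was 0.175 at −log10 q 2 or more. The mean longest cluster, 23.4 kb at Mecom and 14.3 kb at Prdm16, was 16.6 and 9.08 kb with peaks joined within 5 kb and 14.9 and 7.34 kb at −log10 q 2 or more. The calls over all domains, 265 longer in epithelium and 148 in mesothelium, were 0 and 0 at −log10 q 2 or more (limma, 960 at an unadjusted p under 0.05) or 4 (23), 0 and 1 with 0.1 kb added (1654), 108 and 91 scaled to total length, and 80 to 471 and 110 to 173 with 1 library left out (longer in epithelium: 471 without mesothelium replicate 1, 117 and 80 without epithelium replicates 1 and 2). With the replicate number as a block they were 348 and 210; same-numbered libraries did not deviate together (r = 0.04 over 6841 domains), and the labels do not pair them. The cause of these shifts was not tested. Of 78 alternative values, 49 were counted as unmoved. The limit differed by kind of result: 1.5 times the value reported for some kinds, such as the calls over all domains, and a spread for others. Some values counted as moved therefore lie within 1.5 times the value reported.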
